A study of Mus musculus with 2 samples.

Results

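The genes described here are 60 ligands and receptors of axon guidance, taken by symbol from the 21911 protein-coding genes of the GENCODE M21 annotation of the mouse genome (mm10). The semaphorin system held 29 of them (20 semaphorins with 9 plexins and neuropilins), the ephrin system 21 (7 ephrins with 14 Eph receptors), and the slit and netrin system 10 (4 slits and netrin with 6 Robo, Dcc and Unc5 receptors). Members were named by symbol in a list that leaves out some relatives (Plxna3, Plxnb3, Efnb1, Robo3, Robo4 and Unc5d). Chromatin of the left cerebral cortex was assayed by DNase-seq in 2 female mice of postnatal day 4. The mice were B6CASTF1/J, an F1 hybrid between C57BL/6J and CAST/EiJ, and no transgene, deletion or treatment is given in the labels. Each mouse gave 1 library, called replicate 1 and replicate 2. The labels number the animals separately under 1 strain-level donor entry. There was no other age, tissue or genotype, so no test between groups could be made and the values below are descriptions.

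Axon guidance ligands tell a growth cone where to turn, advance or stop. Semaphorins act through plexins, with neuropilins as co-receptors for the secreted ones. Ephrins are held on the membrane of one cell and bind Eph receptor tyrosine kinases on another, and both cells can respond. Slits bind Robo receptors and repel, while netrin 1 attracts through Dcc and repels through Unc5 receptors. In the newborn cortex these systems are known to steer callosal, corticothalamic and subcerebral axons and to place migrating neurons.

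DNase I cuts DNA where chromatin is open, and a stretch cut more than its surroundings is a DNase I hypersensitive site (DHS). The authors' stricter peak list held 59355 calls in replicate 1 and 46566 in replicate 2. Overlapping calls of both libraries made 26012 shared DHSs, of which 14584 were promoter DHSs, within 1 kb of a transcription start site of a protein-coding gene, and 11428 were distal. The signal value is the authors' density for each call. Its scaling is not stated and the read depth behind it is unknown, so the libraries' values are given side by side and not averaged. Values below 0.3 made up 42.5% of the calls of replicate 1 and 2.39% of those of replicate 2. Of the calls nearest to the 60 genes, 186 of 431 were that low in replicate 1 and 1 of 369 in replicate 2. The low calls lay in dense runs at a few genes, with 42 of 49 calls at Plxna1, 30 of 35 at Nrp2 and 28 of 41 at Ephb1. Leaving out all calls under 0.3 changed the shared state of no promoter among the 60. Markers of the labelled tissue had promoter DHSs in both libraries for 6 of 6 general neuronal genes and 4 of 8 projection neuron genes, and 7 of those 8 had a call in replicate 2. The counts were 3 of 5 for astrocytes and radial glia, 3 of 5 for the oligodendrocyte lineage and 2 of 5 for interneurons. Over all protein-coding genes the share was 55.7%. The projection neuron list (50%) and the interneuron list (40%) lay below it, and the astrocyte and oligodendrocyte lists (60% each) near it. Microglia, liver and blood, hindbrain and spinal cord, and endothelial and mural lists had 0 of 5 each, although some endothelial genes had calls that were not shared, 2 in replicate 1 and 1 in replicate 2. All genes of the microglia and of the liver and blood lists had CpG-poor promoters, a class with a low background (20.1% of all such genes). In bulk tissue, a site open in few cells and a site weakly open in many cannot be told apart.

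Most guidance genes were open at a start site. A promoter DHS shared by both libraries was found for 49 of the 60 genes (81.7%), against 12204 of all 21911 protein-coding genes (55.7%). In replicate 1 alone 50 genes (83.3%) had a promoter call, against 57% of all genes, and in replicate 2 alone 54 genes (90%), against 60.2%. By system, the shared promoter DHS was present for 25 of 29 semaphorin system genes (86.2%), 16 of 21 ephrin system genes (76.2%) and 8 of 10 slit and netrin system genes (80%). The systems differed by less than ligands and receptors did. Of the receptors, 27 of 29 (93.1%) had a shared promoter DHS, and of the ligands 22 of 31 (71%). This held within each system. All 9 plexins and neuropilins had one, beside 16 of 20 semaphorins. So had 12 of 14 Eph receptors beside 4 of 7 ephrins, and all 6 Robo, Dcc and Unc5 receptors beside 2 of 4 slits and netrin. These differences were not tested. The counts hold for the listed genes, and of relatives outside the list Plxnb3 and Robo4 lacked a shared promoter DHS, while Plxna3, Efnb1, Robo3 and Unc5d had one.

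**Figure D1:**
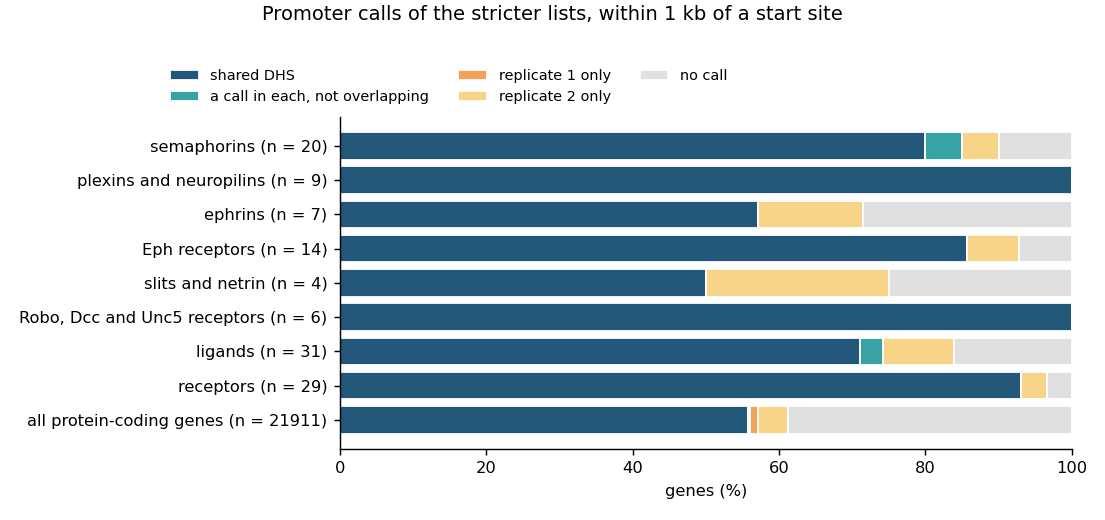
Horizontal bars give the share of genes (%) by state of the promoter in the stricter lists, for the 6 role groups, all ligands, all receptors and all protein-coding genes. Receptors reach 93.1% with a shared DHS and ligands 71%, while all protein-coding genes reach 55.7%.

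The 60 genes were richer in CpG promoters than genes in general, and calls followed CpG content genome-wide. A promoter was called CpG-richer where the observed to expected CpG ratio within 500 bp of a start site reached 0.6. This was so for 49 of the 60 genes (81.7%), against 50.6% of all genes. Among CpG-richer promoters the shared DHS was present for 43 of 49 guidance genes (87.8%), against 90.4% of all such genes, so in this class the share was near the background. Among CpG-poor promoters it was present for 6 of 11 guidance genes (54.5%), against 20.1% of all such genes. These 6 were Sema3f (ratio 0.5), Sema4f (0.589), Epha6 (0.55), Epha10 (0.333), Robo2 (0.568) and Dcc (0.571). All but Epha10 lay between 0.5 and the limit of 0.6, and ratios within the CpG-poor class were not matched to the background. Epha10 lost its shared promoter DHS with a window of 0.5 kb. Within the CpG-richer class, 23 of 24 receptors and 20 of 25 ligands had a shared promoter DHS, with Epha8 the one receptor without.

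Promoter signal lay a little above the middle of all genes and below the middle of called genes. The promoter signal value of a gene is the highest value among the calls in its promoter window, and genes with no call count as 0 in the ranks. Only 57% of all genes had a call in replicate 1 and 60.2% in replicate 2. Even the weakest called promoter therefore ranked above the many genes at 0. The median guidance gene exceeded 55.7% of all genes in replicate 1 and 56.5% in replicate 2. Among genes with a call, the median signal value of guidance genes was 1.19 in replicate 1 and 2.52 in replicate 2, against 1.56 and 4.09 for all called genes. The order of the genes was much the same in both libraries. Over the 50 guidance genes with a call in each, Pearson's r of the log2 values was 0.885 and Spearman's rho 0.869, a description across genes that share libraries and are not independent.

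**Figure D2:**
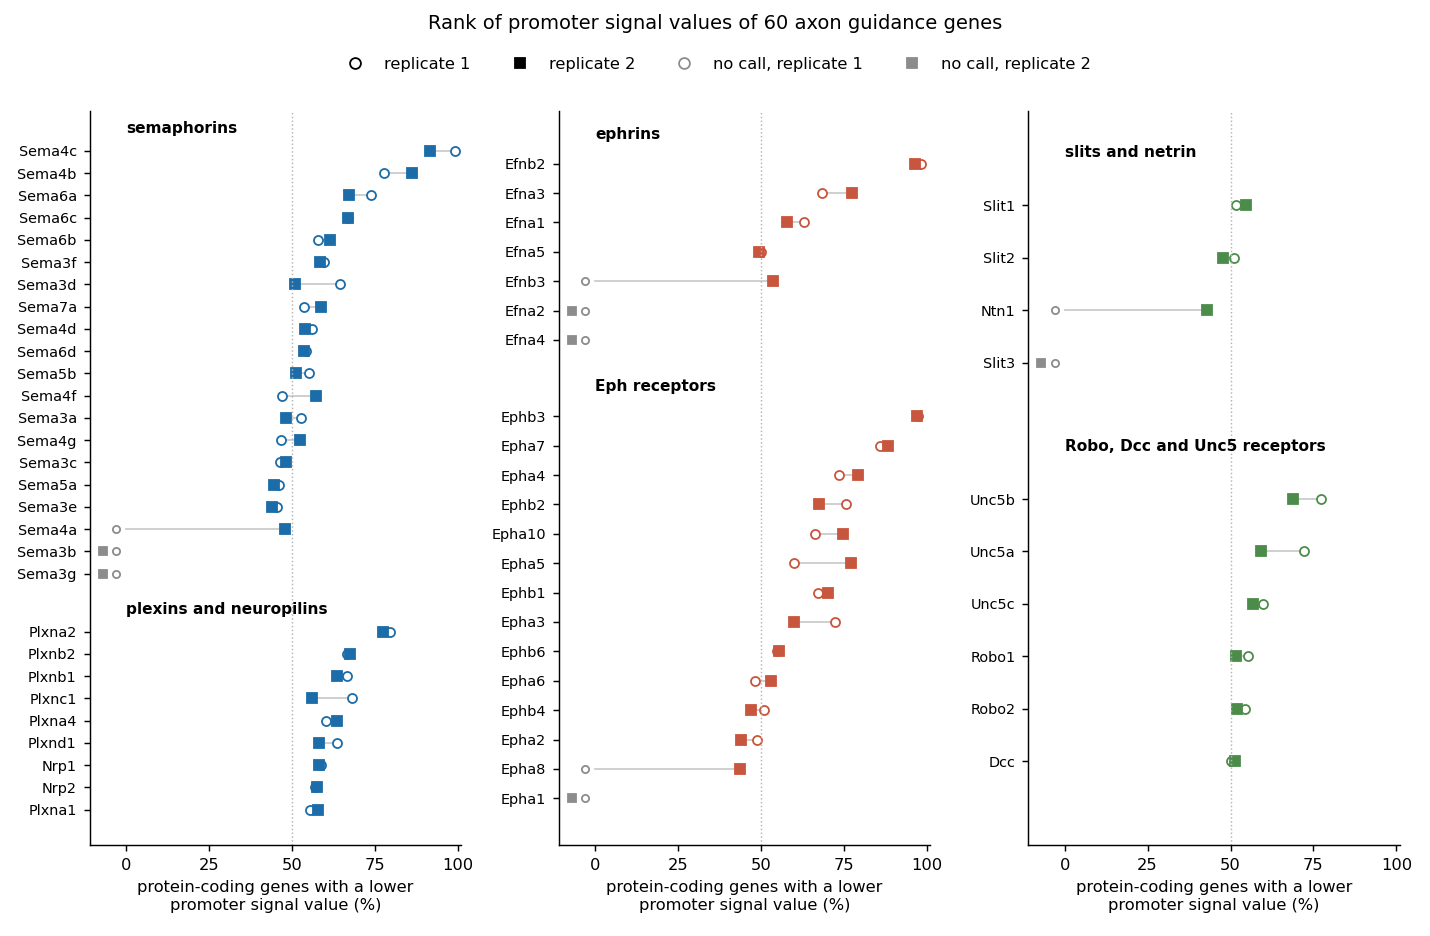
Each row is 1 of the 60 genes, with the percentage of protein-coding genes that had a lower promoter signal value in replicate 1 (open circles) and replicate 2 (filled squares); grey marks left of 0 are genes with no call in that library. Sema4c, Efnb2 and Ephb3 lie above 90% in both libraries, and most other called genes lie between 40% and 80%.

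Of the semaphorins, Sema4c stood highest. Sema4c is a membrane-bound semaphorin that signals through plexin-B2. Its promoter signal value was 3.51 in replicate 1 and 8.44 in replicate 2, above 99.2% and 91.6% of all genes. Sema4b, another membrane-bound class 4 semaphorin, followed with 1.78 and 6.90. Sema6a, a transmembrane ligand of plexins A2 and A4, had 1.65 and 3.70, and its relative Sema6c had 1.41 and 3.66. At the low end of the called semaphorins were Sema3e, which binds plexin-D1 without a neuropilin, with 0.626 and 1.02, and Sema5a, a transmembrane semaphorin with thrombospondin repeats, with 0.654 and 1.09. Both low genes lay near 45% of all genes in each library, so a shared call did not require a high rank. Sema3a, the classic secreted repellent of cortical axons, had 0.934 and 1.46. By class, the shared promoter DHS was present for 5 of 7 secreted class 3 genes, 4 of 6 class 4 genes, both class 5 genes, 4 of 4 class 6 genes and Sema7a, the lipid-anchored ligand of plexin-C1. Sema4d, the ligand of plexin-B1, had 1.06 and 2.06, and Sema6b 1.13 and 2.99.

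The strongest promoter DHS of the semaphorin system is shown because footprints of both libraries covered much of it. It lay at chr1:36557141-36557380 (mm10), inside Sema4c and downstream of its most 5′ start site. The minus strand is printed without 21 bases annotated as UTR. Capitals in this and the next 5 sequences mark bases inside footprints of both libraries, a footprint being a short stretch that the authors called as protected from cutting.
Sema4c promoter, chr1:36557141-36557359, minus strand: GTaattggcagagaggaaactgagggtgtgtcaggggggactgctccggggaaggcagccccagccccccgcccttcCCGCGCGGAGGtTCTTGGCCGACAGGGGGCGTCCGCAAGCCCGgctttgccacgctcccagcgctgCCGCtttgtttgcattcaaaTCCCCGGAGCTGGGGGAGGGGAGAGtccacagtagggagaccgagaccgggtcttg
Of its 219 printed bases, 73 lay in footprints of both libraries. The printed stretch held GGGCGG, the GC box letters bound by Sp factors, outside the capitals.

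All 9 listed receptors of semaphorins had a shared promoter DHS, and their values were close together. Plxna2, a plexin that pairs with neuropilins and also binds Sema6a, was highest with 1.85 in replicate 1 and 5.21 in replicate 2. Plxnb2, the receptor of class 4 ligands, had 1.40 and 3.77. Plxnb1 had 1.41 and 3.25, and Plxnc1, the Sema7a receptor, had 1.46 and 2.35. The lowest by mean rank over both libraries were Plxna1 with 1.03 and 2.54 and Nrp2, the neuropilin preferred by Sema3f, with 1.09 and 2.51. Nrp1, the Sema3a co-receptor, had 1.15 and 2.59, and Plxnd1, the Sema3e receptor, 1.31 and 2.57. The 9 values thus spanned 1.03 to 1.85 in replicate 1, a narrower range than the 0.626 to 3.51 of the semaphorins. Plxna3 and Plxnb3 are plexins outside the list. Plxna3 had 1.10 and 2.26, while Plxnb3 had a call of 0.252 in replicate 1 and none in replicate 2.

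Of the Eph receptors, Ephb3 stood highest, with a promoter signal value of 2.93 in replicate 1 and 10.8 in replicate 2, above 97.2% and 96.8% of all genes. Ephb3 is a receptor of ephrin-Bs and is known from callosal axons. Epha7 followed with 2.09 and 7.40, then Epha4, which binds ephrins of both classes and is known from corticospinal axons, with 1.63 and 5.57. Ephb2 had 1.71 and 3.73. The lowest shared promoters by mean rank were those of Epha2, with 0.780 and 1.02, and Ephb4, a receptor known from veins, with 0.869 and 1.32. Ephb6, whose kinase domain is inactive, had 1.01 and 2.25. All 5 EphB receptors had a shared promoter DHS and 7 of 9 EphA receptors had one. Epha8 had a call of 0.969 in replicate 2 and none in replicate 1, and Epha1 had a call in neither.

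Of the ephrins, Efnb2, a transmembrane ligand of EphB receptors and of Epha4, had 3.13 in replicate 1 and 10.5 in replicate 2, above 98.2% and 96.3% of all genes. The next was Efna3 with 1.46 and 5.23. Efna1 had 1.28 and 2.53, and Efna5, the lipid-anchored ephrin known from cortical mapping, had 0.831 and 1.58. The ephrins were uneven, with Efnb2 among the highest promoters, Efna5 near 50% of all genes, and 3 genes without a shared DHS. Among called genes Efna5 was low, below their median signal value in both libraries. Efnb3, the ephrin known to hold corticospinal axons at the midline, had a call of 2.01 in replicate 2 and none in replicate 1. Efna2 and Efna4 had none in either.

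The strongest promoter DHS of the ephrin system, at the start site of Efnb2, is shown because footprints of both libraries covered 1 of its GC boxes. The DHS lay at chr8:8661181-8661620, and 62 UTR bases and the far end are left out.
Efnb2 promoter, chr8:8661243-8661542, minus strand: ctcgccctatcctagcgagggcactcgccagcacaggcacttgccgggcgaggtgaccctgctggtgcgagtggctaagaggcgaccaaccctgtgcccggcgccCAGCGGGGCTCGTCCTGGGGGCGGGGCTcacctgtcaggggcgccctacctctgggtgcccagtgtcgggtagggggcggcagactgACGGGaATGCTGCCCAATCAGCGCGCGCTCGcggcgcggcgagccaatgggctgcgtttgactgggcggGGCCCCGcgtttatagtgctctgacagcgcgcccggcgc
The footprints of both libraries covered 65 of the 300 printed bases, 1 run of them over GGGCGG, and the other copies of GGGCGG lay outside the capitals.

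In the slit and netrin system all 6 listed receptors had a shared promoter DHS, and their values overlapped those of the called ligands. Unc5b, a netrin receptor that mediates repulsion, had 1.77 in replicate 1 and 3.93 in replicate 2. Unc5a had 1.59 and 2.71, and Unc5c 1.19 and 2.39. Robo1 and Robo2, the slit receptors of cortical axons, had 1.04 and 1.82 and 0.999 and 1.84. Dcc, the netrin receptor for attraction, had 0.836 and 1.76. The ligands Slit1 and Slit2 had 0.906 and 2.16, and 0.869 and 1.39. Netrin 1 (Ntn1) had a call of 0.898 in replicate 2 and none in replicate 1, although 43.9% and 56.9% of the bases in its promoter windows were listed with a cut-rate false discovery rate under 0.05 in replicates 1 and 2. Slit3 had a call in neither.

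The promoter DHS of Unc5b, the strongest of this system, is shown because a footprint of both libraries reached into a GC box there too. The DHS was chr10:60831381-60831780, and 201 bases annotated as UTR are left out.
Unc5b promoter, chr10:60831582-60831780, minus strand: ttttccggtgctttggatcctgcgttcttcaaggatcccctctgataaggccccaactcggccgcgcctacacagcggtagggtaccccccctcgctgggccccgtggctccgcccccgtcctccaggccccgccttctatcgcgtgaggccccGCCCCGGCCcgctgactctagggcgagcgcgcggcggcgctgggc

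In their promoter windows, the 11 genes without a shared promoter DHS ran from near the threshold to no sign of cutting in the files. Sema4g had a call in each library, 0.691 and 1.89, that did not overlap. Calls of replicate 2 alone were found at Sema4a (1.43), Epha8, Efnb3 and Ntn1, which made 4 of the 60 (6.67%), against 4.21% of all genes, and calls of replicate 1 alone at 0 of the 60, against 1.05%. The authors' lenient list had a shared call at 8 of the 11, and so for 57 of the 60 genes (95%), against 61.5% of all genes. The 3 still without one were Sema3b, Sema3g and Efna2. In the cut-rate file, which lists bases with a false discovery rate under 0.05, the promoter windows of Sema3b held no listed base in either library. Sema3g had 0% and 0.85% of its window listed, and Efna2 had 1.00% and 0%. Epha1 had 7.45% and 10%, and Efna4 4.85% and 8.80%. Slit3 differed between libraries, with 4.95% listed in replicate 1 and 44.3% in replicate 2, where its lowest false discovery rate was 0.00121. Of these 6 genes, Efna2, Efna4 and Slit3 had CpG-richer promoters, with ratios of 0.865, 0.602 and 0.801. At the inner edge, the lowest signal value of a shared CpG-richer promoter among the 60 was 0.626 in replicate 1, at Sema3e, and 1.02 in replicate 2, at Epha2, with Sema3e at the same value after rounding.

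Guidance promoters were lower in signal than comparable promoters in both libraries, and longer mainly in replicate 2. The comparison was made among CpG-richer promoters with a shared DHS, 43 of guidance genes and 10026 in all, which holds the CpG class fixed. The median promoter signal value of the guidance genes was 1.21 in replicate 1, against 1.70 for all such genes, and only 8 of the 43 (18.6%) exceeded the all-gene median, against 50% by construction. In replicate 2 it was 2.59, against 4.95, and 9 of the 43 (20.9%) exceeded the median, against 50%. The length went the other way. Shared promoter DHSs covered a median of 860 bp per guidance gene, against 500 bp, and 32 of the 43 exceeded the all-gene median. This length is the sum over all shared DHSs at the start sites of a gene, not the width of 1 DHS. Taken alone, the calls of replicate 2 covered 680 bp, against 387 bp, and 34 of the 43 were above the median, where 50% of all such genes were. The calls of replicate 1 covered 540 bp, against 480 bp, and 23 of the 43 were above, where 48.4% of all were. The share of window bases with a false discovery rate under 0.05 was 46.6%, against 45.3%, in replicate 1 and 65.3%, against 48.4%, in replicate 2. The lower signal was thus seen in both libraries, and the greater length mainly in replicate 2. Ephb1, Plxna4 and Nrp1 are examples. Their shared promoter DHSs covered 3300, 1560 and 1970 bp, while Ephb1 had signal values of 1.42 and 4.10, Plxna4 1.21 and 3.21, and Nrp1 1.15 and 2.59. Plxna2 was long without being low, with 1800 bp in 4 DHSs and signal values of 1.85 and 5.21. These 4 genes also carried many of the low calls of replicate 1, and the part of those calls in the lengths was not tested.

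**Figure D3:**
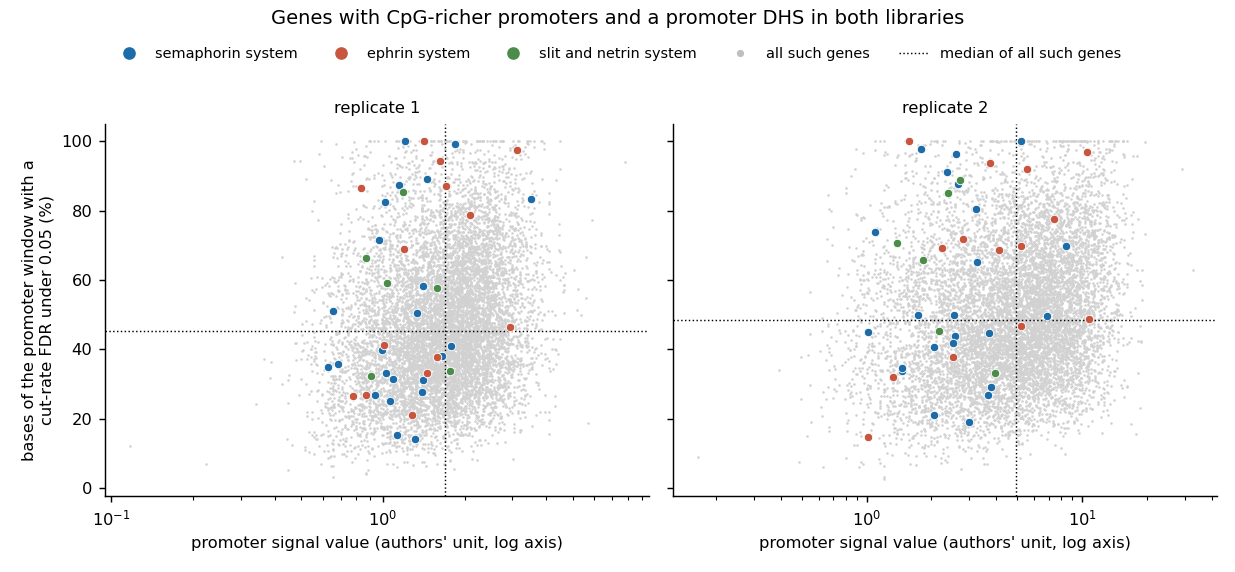
Points are genes with a CpG-richer promoter and a shared promoter DHS, with the promoter signal value on a log axis and the percentage of promoter window bases listed with a false discovery rate under 0.05, for replicate 1 and replicate 2. Coloured points are the 43 guidance genes and grey points all 10026 such genes, with dotted lines at the medians of all such genes; 8 of 43 coloured points lie right of the line in replicate 1 and 9 in replicate 2.

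Footprints lay less densely in these promoters. The guidance genes had 75 shared promoter DHSs, with a median width of 480 bp, against 400 bp for all 14584. In them 56 (74.7%) held a footprint common to both libraries, against 80.3% of all. The common footprints numbered 164, which is 3.44 per kb, against 4.78 per kb. Where footprints had to overlap by 50% of each, they numbered 110. The median signal value of these DHSs was also lower, 1.09, against 1.34, in replicate 1 and 2.3, against 3.34, in replicate 2. Footprint density at matched signal was not tested. Replicate 1 had 368 footprints in these DHSs and replicate 2 had 541, so the number rests on which libraries are asked. Per gene with a CpG-richer shared promoter the median was 3 common footprints, the same as for all such genes. The promoters with the most common footprints were those of Plxna2 with 9, and of Sema6d, Plxnc1, Ephb3 and Unc5c with 7 each.

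Consensus letters were searched on both strands in the shared DHSs, as a description of sequence. GGGCGG, the GC box, was in 80% of the 75 guidance promoter DHSs, against 75.4% of all promoter DHSs. CCGGAAG, the ETS letters, was in 10.7%, against 19.1%. GCGTGGGCG, the EGR letters, was in 5 of 75 (6.67%), against 2.02%, and TGACGTCA, the CRE letters, in 2.67%, against 3.64%. GCGCATGCG for NRF1 and AAGATGGCG for YY1 were in 0 of 75, against 3.90% and 4.18% of all promoter DHSs. If the 75 DHSs were independent, 0 of 75 would allow a share of up to 4%. They come from 49 genes, so the limit may be too low, and a lack of these letters was not tested. Limits of this kind cover counting error only.

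Alternative start sites were mostly closed where they were poor in CpG. Start sites more than 2 kb apart were taken as separate clusters, and 15 of the 60 genes had more than 1. Of their 32 clusters, 14 had a shared DHS. The CpG ratio had a median of 0.744 (0.347 to 0.984) in those 14 and of 0.230 (0.0684 to 0.866) in the other 18. Only Sema4b and Ephb3 were open at every cluster, while 9 genes were open at some and Sema3b, Sema4a, Sema4g and Ntn1 at none. Sema6d, a transmembrane ligand of plexin-A1, spans 578 kb and has 3 clusters. The first had signal values of 0.967 and 1.37, the next, 520 kb downstream, had 0.995 and 2.05, and the last, at 564 kb, had no call. The split by CpG was not complete. The second cluster of Ephb3, with a ratio of 0.347, was open with 1.35 and 3.16, as was the first of Sema3f, with a ratio of 0.5, while clusters of Sema4g and Ntn1 with ratios of 0.678 and 0.866 had no shared DHS. Plxnb2 had 1.40 and 3.77 at its first cluster, and at the second, 10.1 kb away with a ratio of 0.133, a call of 2.13 in replicate 2 alone. Sema3a was open only at the second of its clusters, 2.52 kb from the first, where the ratio was 0.712, against 0.0684 at the first.

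**Figure D4:**
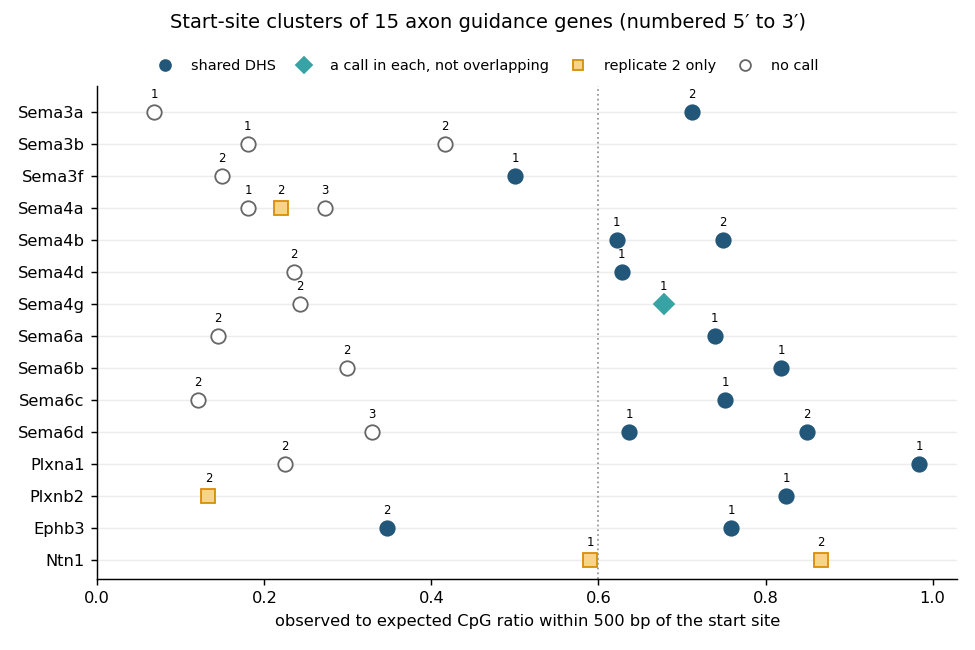
Rows are the 15 guidance genes with more than 1 start-site cluster, and each mark is a cluster placed by its CpG ratio and numbered from the 5′ end; the dotted line is at 0.6. Filled circles, clusters with a shared DHS, lie mostly right of the line, with Sema3f and the second cluster of Ephb3 left of it.

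Away from promoters, the 60 genes had more distal DHSs per gene than genes in general, and fewer per Mb. By nearest start site, 85 distal shared DHSs fell to 41 of the 60 genes (68.3%), against 29.9% of all genes with at least 1. This was 1.42 per guidance gene, against 0.522 per gene. The territories closest to their start sites summed to 29.2 Mb, however, and per Mb the guidance genes had 2.91 distal shared DHSs, against 4.19 for all genes. Each library alone gave the same order, with 10.9 distal calls per Mb, against 14.7, in replicate 1 and 8.37, against 9.70, in replicate 2. The median guidance gene was 88.6 kb long, against 17.4 kb, and inside gene bodies the density was 0.542 per 100 kb, against 0.482. Per Mb the semaphorin system had 4.69 (40 DHSs), the slit and netrin system 2.97 (23 DHSs) and the ephrin system 1.71 (22 DHSs). Epha7, Epha6, Epha5, Epha4 and Epha3 lie in wide territories, from 812 kb for Epha3 to 2809 kb for Epha7, and had at most 1 distal shared DHS each. Sema3a, Sema3c, Sema3d and Sema3e all lie on chromosome 5, with territories of 705, 180, 739 and 362 kb, and had 0 each. Where noncoding genes also counted as nearest, 39 of the 85 DHSs stayed with the guidance genes, and 27 of the 60 (45%) kept at least 1, against 16.9% of all genes.

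The distal DHSs lay in introns more often than distal DHSs at large. Of the 85, 41 were intronic (48.2%, against 38.1%), 35 intergenic (41.2%, against 44.7%) and 9 exonic (10.6%, against 17.2%). Inside the guidance gene itself were 43 of them. The median distance to the start site was 22.2 kb, against 24.1 kb, and 43.5% lay within 10 kb, against 29.3%. Within 50 kb the order was the other way, with 62.4%, against 69.7%, and within 100 kb it was 76.5%, against 84.2%. Their median width was 244 bp, against 215 bp, and 87.1% held a footprint common to both libraries, against 85.3%. Some lay at start sites of another annotation, since 22 of the 85 had a start site within 1 kb in the comprehensive GENCODE set, in RefSeq or at a noncoding gene, 13 of them a start site of the guidance gene itself. With a promoter window of 2.5 kb the 85 became 66, while the 11428 over all genes became 10364. How far the excess within 10 kb rests on DHSs just outside the 1 kb window was not tested.

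The strongest distal DHS of the set lay nearest to a gene without a call at its start sites in the basic annotation. Which gene a distal DHS acts on was not tested. Sema3b, a secreted class 3 semaphorin, had no call in the promoter windows of the basic set, yet 3.60 kb upstream lay a DHS with 3.41 in replicate 1 and 11.7 in replicate 2. No annotated start site lay within 1 kb of it in any of the 3 annotations. A further one, in the gene at chr9:107602121-107602320, had 2.57 and 6.03 and lies within 1 kb of a Sema3b start site of the comprehensive annotation, which is outside the basic set. The upstream DHS is shown because its footprints of both libraries reached into the letters TGACGTCA, which begin at the end of the second run of capitals.
Sema3b upstream, chr9:107612721-107612940, plus strand: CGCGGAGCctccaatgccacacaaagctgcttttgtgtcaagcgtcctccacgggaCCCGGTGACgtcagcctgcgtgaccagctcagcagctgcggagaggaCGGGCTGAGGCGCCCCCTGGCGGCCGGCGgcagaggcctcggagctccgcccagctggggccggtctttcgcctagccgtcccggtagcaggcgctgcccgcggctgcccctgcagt
The footprints of both libraries covered 46 of its 220 bases. TGACGTCA was found in 0.910% of all distal shared DHSs.

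Among the other strong distal sites, Sema5a paired a weak promoter with a DHS 1.37 kb downstream, at chr15:32246081-32246280, of 2.56 and 4.47. This one too lay within 1 kb of a further Sema5a start site, in the comprehensive set and in RefSeq. In the ephrin system the strongest was 1.34 kb upstream of Epha4, in an exon of the noncoding gene Gm28386, with 2.60 and 6.40, above the 1.63 and 5.57 of the Epha4 promoter itself. It had no other start site within 1 kb and held no exact match to any of the 11 consensus sequences searched, while 62 of its bases lay in footprints of both libraries.
Epha4 upstream, chr1:77516301-77516560, plus strand: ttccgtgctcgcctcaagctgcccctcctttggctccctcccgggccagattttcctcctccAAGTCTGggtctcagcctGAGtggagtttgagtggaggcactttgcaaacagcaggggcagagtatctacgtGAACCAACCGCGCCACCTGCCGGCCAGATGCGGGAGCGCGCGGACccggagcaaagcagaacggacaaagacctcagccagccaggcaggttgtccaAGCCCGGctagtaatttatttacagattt
Efna5 had a DHS 3.02 kb upstream, at chr17:62884241-62884440, with 1.58 and 3.42, and Efna3 one 5.87 kb downstream, at chr3:89316927-89317100, with 1.72 and 3.02. In the slit and netrin system the strongest lay 20.4 kb upstream of Slit1, with 1.83 and 4.53, above the 0.906 and 2.16 of the Slit1 promoter. It is shown because 1 footprint of each library covered a match to the CTCF consensus.
Slit1 upstream, chr19:41763981-41764180, plus strand: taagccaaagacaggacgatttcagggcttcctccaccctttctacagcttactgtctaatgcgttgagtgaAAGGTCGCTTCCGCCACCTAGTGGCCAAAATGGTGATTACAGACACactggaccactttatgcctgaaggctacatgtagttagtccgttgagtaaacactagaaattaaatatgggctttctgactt
The next were at Unc5b, 3.58 kb upstream at chr10:60835083-60835229 with 1.36 and 1.94, and 4.33 kb downstream at chr10:60826867-60827240 with 1.05 and 2.11.

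By count, the largest numbers of distal DHSs lay at receptors. Per Mb of territory the order was the other way, with 2.73 for receptors (49 DHSs) and 3.2 for ligands (36 DHSs). Robo1 had 9, of which 5 lay within the annotated gene, in a territory of 2048 kb or 4.39 per Mb. Their signal values ran from 0.481 to 0.925 in replicate 1, all below the 1.04 of the Robo1 promoter. Plxna4, a plexin for class 3 and class 6 semaphorins, had 6 at 11.9 per Mb, and Plxnc1 had 5 at 15.8 per Mb, among them 1 in an intron 115 kb downstream with 1.33 and 4.99. This DHS lay within 1 kb of a Plxnc1 start site of the comprehensive annotation. That value in replicate 2 was above the 2.35 of the Plxnc1 promoter, and in replicate 1 it was below the promoter's 1.46. Nrp1 had 4, at 62.2 and 2.06 kb upstream and 4.13 and 56.6 kb downstream. Of the ligands, Efna5 and Efnb2 had 4 each, and Slit2 and Sema5b 3 each. The 3 of Slit2 ran from 1.51 to 3.08 kb downstream, with signal values of 0.476 to 0.649 in replicate 1, and each lay within 1 kb of another Slit2 start site of the comprehensive annotation. Slit3, with no promoter call, had a DHS 1.64 kb upstream with 0.906 and 2.00, which a promoter window of 2.5 kb would take in. Of the genes without a shared promoter DHS, Sema3b, Sema3g, Sema4a, Efna4 and Slit3 had at least 1 distal shared DHS, and Sema4g, Epha1, Epha8, Efna2, Efnb3 and Ntn1 had 0.

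**Figure D5:**
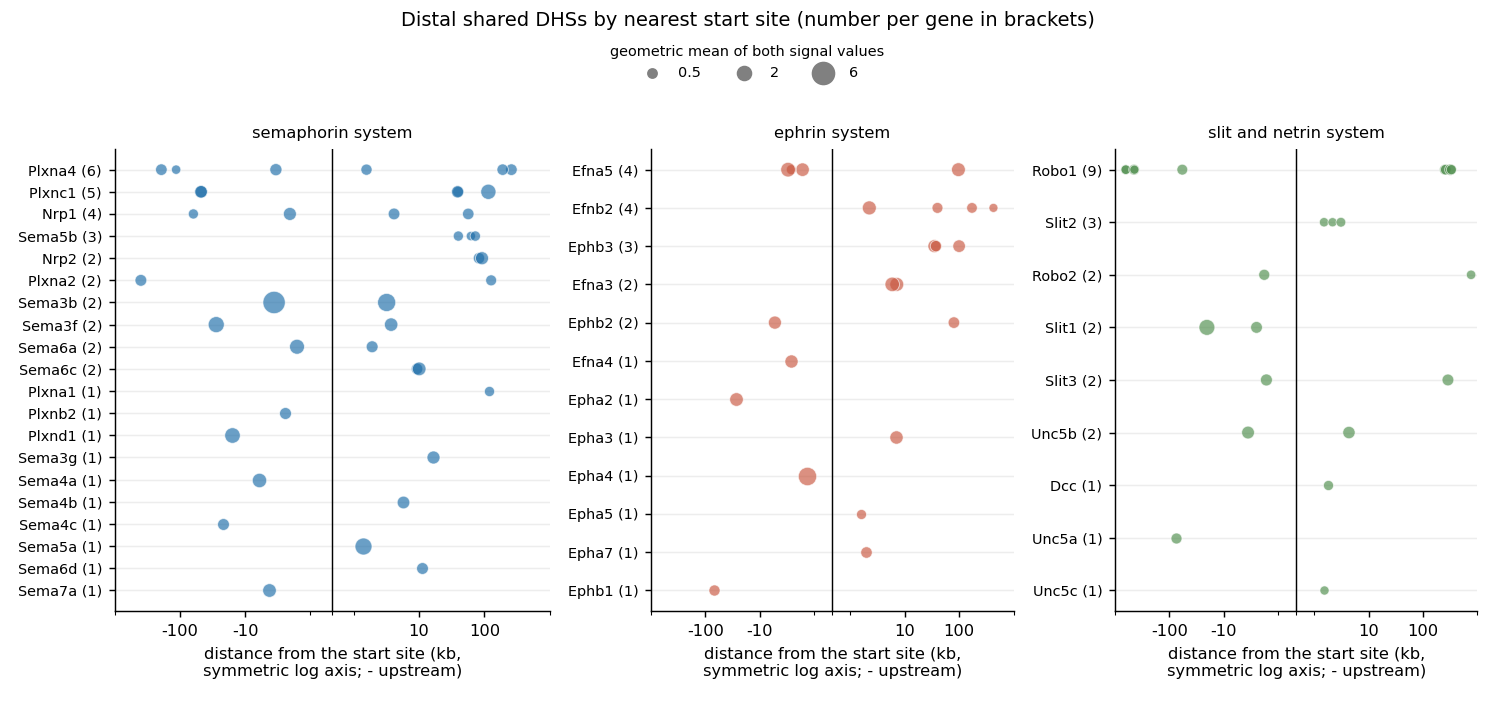
Each circle is 1 of the 85 distal shared DHSs, placed by its distance from the nearest protein-coding start site on a symmetric log axis (negative is upstream) with area by the geometric mean of the signal values of both libraries; rows are genes, with the number of DHSs in brackets. The largest circle is the Sema3b site 3.60 kb upstream, and Robo1 has the longest row, with 9.

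Exact matches to the CTCF consensus were in a smaller share of distal DHSs near guidance genes. CTCF is a zinc-finger protein that marks chromatin loop boundaries and leaves clear footprints. Its consensus was found in 9 of the 85 distal DHSs (10.6%), against 19.0% of all distal shared DHSs. There were 4 in the 23 of the slit and netrin system, 3 in the 22 of the ephrin system and 2 in the 40 of the semaphorin system. All 9 matches were overlapped by a footprint common to both libraries, against 97.4% of the 2170 distal DHSs with a match. The 9 sites are printed with 10 flanking bases on each side and the match in capitals.
Nrp2 (chr1:62786431-62786462, plus strand): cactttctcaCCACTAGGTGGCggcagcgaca
Slit3 (chr11:35119585-35119616, plus strand): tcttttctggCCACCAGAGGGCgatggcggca
Robo1 (chr16:72605249-72605280, minus strand): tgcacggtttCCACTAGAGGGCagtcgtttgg
Robo1 (chr16:72980043-72980074, minus strand): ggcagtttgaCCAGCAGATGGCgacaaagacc
Efna5 (chr17:62784091-62784122, minus strand): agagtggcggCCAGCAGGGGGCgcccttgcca
Slit1 (chr19:41764055-41764086, minus strand): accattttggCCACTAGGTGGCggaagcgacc
Ephb2 (chr4:136841282-136841313, minus strand): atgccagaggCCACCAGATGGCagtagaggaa
Epha2 (chr4:141273407-141273438, plus strand): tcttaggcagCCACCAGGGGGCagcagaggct
Plxna4 (chr6:32328274-32328305, plus strand): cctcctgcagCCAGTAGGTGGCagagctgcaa
The sites at Slit1, Ephb2, Epha2 and Slit3 lay upstream, at 20.4, 5.28, 27.8 and 1.64 kb. Those at Nrp2, Efna5 and Plxna4 lay inside the gene, 82.8, 97.0 and 260 kb downstream. Signal values were highest at the Slit1 site in both libraries. Of the other letters, CAGATGG, the NEUROD E-box, was in 9.41% of the 85, against 9.43% of all distal shared DHSs. TGANTCA for AP-1 was in 3.53%, against 5.44%, and TAATTA for homeodomain proteins in 3.53%, against 2.71%.

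The same measures were taken for the genes around these systems. Of 30 other guidance ligands and receptors, 22 (73.3%) had a shared promoter DHS, against 55.7% of all genes. The highest were Neo1, the netrin and RGM receptor neogenin, with 2.75 in replicate 1 and 7.96 in replicate 2, and Rgmb, a ligand of neogenin, with 2.33 and 9.38. Robo4, Ntn5 and Flrt1 had no call. Of 40 intracellular effectors that act below the receptors, 39 (97.5%) had one. The highest were Gsk3b, a kinase that acts on the growth cone's microtubules, with 2.90 and 13.9, and Nck1, an adaptor between receptors and actin, with 3.12 and 10.7. Mical3, of the oxidases that act below plexins, was the exception with no call, and Dock1, a Rac activator, was the lowest of the called with 0.658 and 0.685. In replicate 1 the median of the 60 ligands and receptors exceeded 55.7% of all genes, against 71.6% for the median effector. The difference between the lists was not tested.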

How the data were processed

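DNase-seq of 2 libraries, of 1 group, was analysed from the authors' deposited mm10 files, made separately for each library per the file headers. Which aligner and caller made them, in which version, is not given in the sources used here. In the deposited peak lists each call has an authors' signal value with no stated scaling. The list with fewer lines was used and the lenient one, with 92872 and 81087 calls in replicates 1 and 2, was an alternative. The deposited cut-rate files list runs of bases with the q-values (false discovery rates) computed by the authors, under 0.05. The deposited footprint files hold 153911 and 224652 intervals, each with the authors' p-value or false discovery rate of 0.01, taken as a threshold. Reads of an F1 hybrid were placed on mm10, which is C57BL/6J sequence, and the effect of CAST/EiJ alleles on calls was not tested.

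Calls overlapping by 1 bp or more made a shared DHS where both libraries had one. Start sites came from GENCODE M21 basic transcripts of protein-coding genes, joined by symbol, and all 60 symbols matched. A DHS edge within 1 kb of a start site made it a promoter DHS, and others went to the start site nearest to their edge. Distances given for single DHSs were measured to their middle. CpG ratios, letters and sequences came from RefSeq GRCm38.p6, the mm10 assembly. UTR bases were left out of the printed sequences only, and the CpG ratios and the shares of DHSs with consensus letters include them. No test was run: counts stand beside the same count over all 21911 genes. The members and lists were chosen with earlier results of these data known. Named genes were, per role group, the 4 highest and 2 lowest by mean rank, those called in 1 library or none, and the 4 with the most distal DHSs, with the 3 strongest distal DHSs per system; other genes and DHSs given with values, such as Sema3a, Sema4d, Sema6d, Plxnd1, Epha5 and Ephb1, were chosen after their values were seen. The scripts (Python 3.11.15, pandas 2.3.3, pysam 0.24.0) were tested on simulated intervals. Alternatives were the lenient list, windows of 0.5 and 2.5 kb, each library alone, calls under 0.3 left out, 50% overlap, a limit of 100 kb, and noncoding start sites.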

Additional observations from a re-analysis of the deposited data

How the results depend on the processing

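The share of guidance genes with a shared promoter DHS, 49 of 60, ran from 33 (55%, against 45.1% of all genes) with calls overlapping by 50% of each to 57 with the lenient lists. Under 50% overlap the semaphorin system had 16 (55.2%) and the slit and netrin system 5 (50%). Ligands then had 14 (45.2%), near the 45.1% of all genes, and receptors 19 (65.5%). With the lenient lists 28 ligands (90.3%) and 29 receptors (100%) had a shared promoter DHS. Distal shared DHSs near guidance genes, 85, became 226 with the lenient lists and 39 with noncoding start sites, and 244 to 319 with 1 library left out. For the semaphorin system these were 119, 19 and 122 to 213; for the ephrin system 60, 10 and 68 to 78; for the slit and netrin system 47, 10 and 28 to 54, with 13 within 100 kb of a start site. Guidance genes with a distal DHS, 41, became 27 with noncoding start sites. With a promoter window of 2.5 kb they became 33 (55%, against 27.6% of all genes), and the 85 DHSs became 66. The 164 common footprints became 110 with footprints overlapping by 50% of each. With 1 library left out they became 368 to 541, since a footprint then needs no partner. Of all alternative values, 70 stayed within 1.5 times of the main value and 22 did not. By this rule the fall from 49 to 33 genes counts as within. A window of 0.5 kb lost Epha10 and one of 2.5 kb gained Slit3. No paired analysis was possible because there was 1 group. Read depth is unknown, and with 2 libraries no spread could be estimated.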
